A study of Mus musculus with 5 samples.

Results

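The 53 genes described here are homeobox genes that lie outside the Hox clusters, taken as a named list from the 21887 protein coding genes of the RefSeq table for the mouse genome. They comprise 10 LIM homeodomain genes (Lhx1 to Lhx6, Lhx8, Lhx9, Isl1 and Isl2), Six2, Six3 and Six6, 6 Nkx genes, 6 Dlx genes, 6 Irx genes, 10 paired and bicoid type genes (Gsc, Otx1, Otx2, Pitx1, Alx4, Prrx1, Prrx2, Shox2, Uncx and Hesx1), Emx1, Emx2, Vax1 and Vax2, En1, En2 and Gbx2, Msx1, Msx2 and Barx1, and Meis1 and Meis2. A homeobox encodes a homeodomain, a DNA-binding fold by which these proteins switch other genes on or off while the embryo lays out brain, limb, heart and gut. Most of these genes sit in long stretches rich in CpG, which are usually free of DNA methylation and are held by Polycomb repressors in cells where the gene is silent. Methylation is the addition of a methyl group to the cytosine of a CpG, and reduced representation bisulfite sequencing samples it mainly where CpG are frequent.

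The study sequenced bisulfite libraries of mouse muscle, as control, and of teratomas, tumours of mixed tissue that pluripotent cells form in a host, obtained after embryonic stem cells (ESCs) were injected into tetraploid embryos. The 4 teratomas are named by the culture of the ESCs as P5_2iL, P5_2iL_F, P5_a2iL_1 and P5_LCDM_1. The labels do not spell these names out. Strain C57BL/6x129S6 is given for every library, the muscle control included, and neither age, sex nor number of animals is given in the sources used here. Each group is 1 library, so no value below has a replicate, no difference could be tested, and a difference between cultures cannot be told apart from a difference between single tumours. A teratoma is bulk tissue, so a different mix of cells and a different methylation within cells cannot be told apart.

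2 regions were measured for each gene on build mm10. The gene end is the end with more listed cytosines, taken over 1000 bp before its boundary and 500 bp past it, and the gene body is what remains. The level of a region is the mean percent methylation over its listed CpG cytosines. A difference is given in percentage points over the cytosines listed in both libraries, with at least 3 required, and is counted as past the size rule at 25 points or, in a second count, at 10 points. Gene ends of 50 members had 3 or more cytosines listed in all 5 libraries, with a median of 69 cytosines and at most 188 over the 53 members. Lhx4, Isl2 and Otx2 had none. Only the 2 strands of the same library serve as a repeat measurement. Over 48 members measured on both, the median difference between strands at the gene end was smallest in muscle (1.26 points), followed by P5_2iL_F (1.41), P5_2iL (1.79), P5_a2iL_1 (1.83) and P5_LCDM_1 (2.31). Strands differed by 25 points or more in 1 case, Hesx1 in P5_2iL_F.

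The number of cytosines listed ran from 4017125 in muscle to 5323090 in P5_2iL_F, and the reads behind a single percent are unknown. Gene ends of skeletal muscle genes (13 of 14 measured) had a mean level of 27.2% in muscle and 51.2 to 60.9% in the teratomas. Gene ends of leukocyte genes (7 of 9 measured) averaged 49.9% in muscle, 0.649% in P5_2iL, 4.77% in P5_2iL_F, 24.1% in P5_a2iL_1 and 28.7% in P5_LCDM_1. The 7 leukocyte gene ends ranged from 0 to 1.12% in P5_2iL and from 5.20 to 57.6% in P5_LCDM_1, and 7, 5, 2 and 0 of them lay under 5% in P5_2iL, P5_2iL_F, P5_a2iL_1 and P5_LCDM_1. In muscle 2 of the 7 were also under 5%. Mean levels in muscle and the range over the teratomas were 20.1% and 18.8 to 43.8% at endothelial gene ends. They were 36.0% and 33.5 to 51.9% at epithelial and 26.6% and 35.3 to 38.9% at neural ones. The muscle and leukocyte lists therefore move with most comparisons below. In P5_2iL_F minus P5_2iL their median differences were only -0.628 and 1.14 points. Their part in the members' differences was not tested.

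The promoters of the members were CpG-rich. RefSeq promoter sequence (build GRCm38.p6, from 250 bases before to 50 bases after a start of transcription) was matched for 40 of the 53 members, which had 47 promoters. The members' promoters held a median of 22 CpG each, against 7 over all 32851 promoters of the table. At least 10 CpG were present in 85.1% of the members' promoters and in 43.5% of all. The ratio of observed to expected CpG had a median of 0.761 in the members and 0.384 over all promoters. The CG motif was counted once per site, since it reads the same on both strands, and at least 1 was found in 100% of the members' promoters and 94.6% of all.

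The promoters of En1, Nkx6-2 and Dlx1 are shown to let the CpG spacing be read beside the methylation measured in the same bases, and were chosen after their values were seen. Each is the 250 bases before an annotated start, written 5′ to 3′ on the gene's own strand, with every CpG in capitals. En1 and Nkx6-2 had their highest level in P5_LCDM_1, and Dlx1 was near 0 in every library although the region just outside it was not. The En1 bases are chr1:120602237-120602486 on the plus strand, the Nkx6-2 bases chr7:139582798-139583047 on the minus strand, and the Dlx1 bases chr2:71529195-71529444 on the plus strand.
En1: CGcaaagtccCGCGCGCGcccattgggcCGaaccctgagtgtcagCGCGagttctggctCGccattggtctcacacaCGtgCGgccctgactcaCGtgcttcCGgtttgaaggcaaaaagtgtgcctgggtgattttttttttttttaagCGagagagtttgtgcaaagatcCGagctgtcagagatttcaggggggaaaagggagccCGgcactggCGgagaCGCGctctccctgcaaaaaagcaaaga
Nkx6-2: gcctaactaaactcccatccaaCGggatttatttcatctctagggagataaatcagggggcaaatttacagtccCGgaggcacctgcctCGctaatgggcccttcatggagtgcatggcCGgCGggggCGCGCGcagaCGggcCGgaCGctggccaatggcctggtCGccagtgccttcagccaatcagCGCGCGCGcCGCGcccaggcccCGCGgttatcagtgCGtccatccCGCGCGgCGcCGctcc
Dlx1: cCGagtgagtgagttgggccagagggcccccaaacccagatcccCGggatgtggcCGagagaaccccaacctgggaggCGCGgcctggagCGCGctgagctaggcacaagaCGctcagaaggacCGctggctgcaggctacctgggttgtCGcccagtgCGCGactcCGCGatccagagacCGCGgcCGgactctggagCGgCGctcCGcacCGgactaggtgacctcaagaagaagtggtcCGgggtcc

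Over the En1 bases, which hold 19 CpG, 28 cytosines were listed in all libraries. They averaged, by library, 0% in muscle, 6.94% in P5_2iL, 8.62% in P5_2iL_F, 11.7% in P5_a2iL_1 and 15.6% in P5_LCDM_1. All 4 teratomas lay above muscle at this promoter, which serves a gene that patterns the midbrain and hindbrain. Over the 26 CpG of the Nkx6-2 bases methylation stood at 2.94% in muscle, 7.28% in P5_2iL, 5.23% in P5_2iL_F, 4.29% in P5_a2iL_1 and 16.4% in P5_LCDM_1 (34 cytosines). P5_LCDM_1 thus stood apart from the other 4 libraries at this regulator of ventral spinal cord identity and oligodendrocytes. The 22 CpG of the Dlx1 bases were at 1.70% in muscle, 0.694% in P5_2iL, 0.687% in P5_2iL_F, 1.46% in P5_a2iL_1 and 0.402% in P5_LCDM_1 (32 cytosines).

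The gene ends of the members were methylated at low levels in all 5 libraries and were slightly more methylated in the teratomas than in muscle. The median level over 49 members with 10 or more cytosines stood at 1.97% in muscle, 3.81% in P5_2iL, 3.79% in P5_2iL_F, 3.79% in P5_a2iL_1 and 6.03% in P5_LCDM_1. Muscle was the lowest library in 26 of these 49 gene ends, and P5_LCDM_1 the highest in 29. These ranks were not counted over all gene ends. Over all autosomal cytosines with 30 or more listed within 100 bp, muscle was also lowest (2.75%) and P5_LCDM_1 highest (4.63%). Levels under 5% were found in 40 of the 49 in muscle and in 16 of the 49 in P5_LCDM_1.

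**Figure D1:**
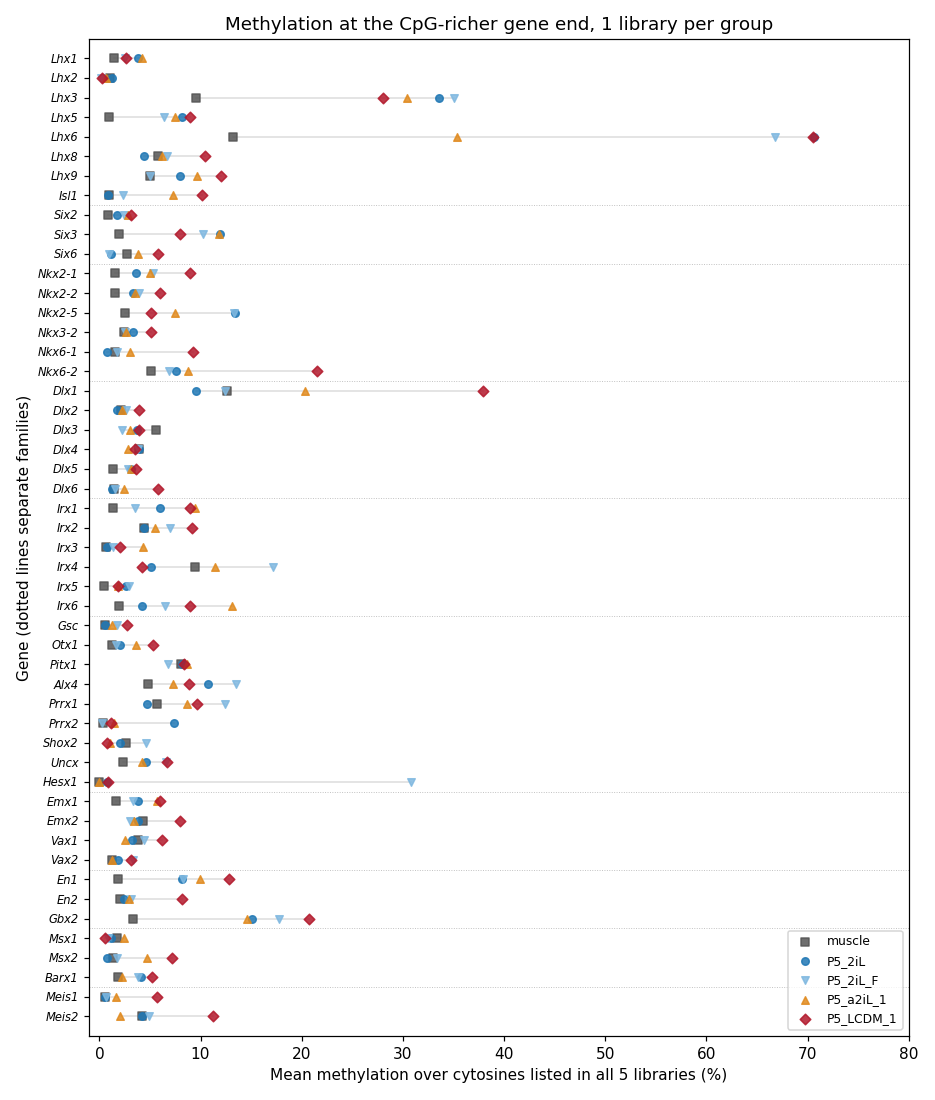
Mean methylation (percent, horizontal axis) at the gene end of each measured member (rows, grouped by family), with 1 symbol for each of the 5 libraries and a grey line joining the lowest and highest; each library is a single sample with no error bar. Most members lie near 0, with medians from 1.97% in muscle to 6.03% in P5_LCDM_1, and Lhx6 stands far above the rest in the teratomas.

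Against muscle, the median difference over the 50 measured gene ends was 0.676 points in P5_2iL, 1.22 in P5_2iL_F, 1.81 in P5_a2iL_1 and 3.81 in P5_LCDM_1. Over all protein coding gene ends it was 0.256, 0.231, 0.212 and 0.213 points. The teratoma was above muscle in 32, 41, 42 and 42 of the 50 members. Over all gene ends it was above muscle in 9010 of 14859, 8849 of 14927, 8403 of 14798 and 8682 of 14912. These 4 comparisons share the muscle library, so a value peculiar to it would enter all of them.

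Few members passed 25 points. In P5_2iL 1 of 50 gene ends (Lhx6) was higher than in muscle and 0 lower, where 4.76% of all gene ends were higher and 1.19% lower. In P5_2iL_F 3 were higher (Lhx6, Lhx3 and Hesx1) and 0 lower, beside 4.52% and 1.10% of all. In P5_a2iL_1 0 passed in either direction, beside 3.14% higher and 0.851% lower. In P5_LCDM_1 2 were higher (Lhx6 and Dlx1) and 0 lower, beside 3.29% and 1.32%. Of 49 member gene ends with 10 or more cytosines, the highest in muscle was at 13.2%. They had no room to be lower by 25 points, so the counts of 0 lower carry no information. The members' lower to upper quartile of cytosines listed in any library was 61 to 155. Among 7341 other gene ends in that range, the share higher by 25 points was 0.532% in P5_2iL, 0.519% in P5_2iL_F, 0.465% in P5_a2iL_1 and 0.928% in P5_LCDM_1. The shares of all measured members were 2%, 6%, 0% and 4%, and rest on 0 to 3 genes. All of these genes lay below that range, with 23 listed cytosines at Lhx6, 13 at Lhx3, 23 at Hesx1 and 48 at Dlx1. The shares are therefore not matched for the number of cytosines.

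At 10 points, 4 members were higher in P5_2iL, 5 in P5_2iL_F, 4 in P5_a2iL_1 and 6 in P5_LCDM_1, and 0 were lower in any of the 4. In muscle 47 of 49 gene ends were under 10%, so few could be lower by that size. The share of all gene ends that were higher was 11.6%, 11.2%, 9.12% and 9.63%, and the share lower was 2.78%, 2.85%, 3.28% and 4.63%. Other gene ends with 61 to 155 listed cytosines were higher by 10 points in 2.62%, 2.47%, 2.47% and 3.78%. The shares of all measured members, which are not limited to that range, were 8%, 10%, 8% and 12%.

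Against P5_2iL, the other teratomas differed little at the members' gene ends. The median difference was 0.532 points in P5_2iL_F, 0.010 in P5_a2iL_1 and 1.98 in P5_LCDM_1, where all gene ends had medians of -0.011, -0.062 and -0.017. At 25 points, P5_2iL_F had 1 member higher (Hesx1) and 0 lower, beside 0.367% and 0.439% of all gene ends. P5_a2iL_1 had 0 higher and 1 lower (Lhx6), beside 1.11% and 2.05%, and P5_LCDM_1 had 1 higher (Dlx1) and 0 lower, beside 1.30% and 3.24%. At 10 points the members counted 2 higher and 0 lower in P5_2iL_F (background 2.10% and 2.69%), 1 and 1 in P5_a2iL_1 (3.45% and 7.62%), and 2 and 0 in P5_LCDM_1 (4.44% and 9.71%). In P5_2iL 44 of 49 gene ends were under 10%, so few could be lower by that size. These 3 comparisons share the P5_2iL library.

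Among the LIM homeodomain genes, which pair the DNA-binding domain with LIM domains that recruit cofactors, Lhx6 had the largest gene end difference. Its gene end lay at chr2:36080950-36082450, the far end of this minus-strand gene from its starts, and stood at 13.2% in muscle, 70.7% in P5_2iL, 66.8% in P5_2iL_F, 35.4% in P5_a2iL_1 and 70.6% in P5_LCDM_1 over 20 cytosines. Muscle was low, P5_a2iL_1 intermediate and the other 3 teratomas high. The difference from muscle was 57.5 points in P5_2iL (strands 60.3 and 54.6), 53.6 in P5_2iL_F (46.5 and 61.3), 22.2 in P5_a2iL_1 (14.3 and 30.1) and 57.4 in P5_LCDM_1 (59.1 and 56.3). P5_a2iL_1 minus P5_2iL was -35.3 points, with -46.0 and -24.5 on the strands. Lhx6 directs the migration and fate of cortical interneurons. In a window placed at its annotated start instead, it differed from muscle by 1.59 points in P5_2iL, 1.18 in P5_2iL_F and 22.3 in P5_LCDM_1.

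Lhx3 acts in pituitary and motor neuron development, and its gene end also lay far from its starts. It was measured there over only 4 cytosines, at 9.52% in muscle, 33.6% in P5_2iL, 35.1% in P5_2iL_F, 30.4% in P5_a2iL_1 and 28.0% in P5_LCDM_1. Lhx5, a forebrain gene, had 0.991% in muscle, 8.18% in P5_2iL, 6.37% in P5_2iL_F, 7.48% in P5_a2iL_1 and 9.0% in P5_LCDM_1 over 124 cytosines. Both genes had all teratomas above muscle. The gene end of Isl1, needed for motor neurons and the second heart field, was at 0.961%, 0.834%, 2.29%, 7.30% and 10.2% in muscle, P5_2iL, P5_2iL_F, P5_a2iL_1 and P5_LCDM_1 over 137 cytosines. The difference of P5_LCDM_1 from P5_2iL was 9.73 points, and both strands were past 10. In the same order of libraries Lhx9 stood at 5.04%, 7.96%, 4.99%, 9.61% and 12.1% (24 cytosines) and Lhx8 at 5.82%, 4.42%, 6.65%, 6.18% and 10.4% (11 cytosines). Lhx2, a gene of eye, forebrain and hair follicle, was at 1.08%, 1.23%, 0.139%, 0.691% and 0.296%, near 0 in every library. Lhx1 ranged from 1.48 to 4.21%.

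In the Nkx genes, P5_LCDM_1 stood apart at Nkx6-2, whose gene end was at 5.12% in muscle, 7.54% in P5_2iL, 6.85% in P5_2iL_F, 8.76% in P5_a2iL_1 and 21.5% in P5_LCDM_1 over 113 cytosines. P5_LCDM_1 was 16.4 points above muscle (strands 18.4 and 14.1) and 13.4 above P5_2iL (12.9 and 14.1). Nkx2-5, the cardiac member of the group, had another order, at 2.52% in muscle, 13.4% in P5_2iL, 13.3% in P5_2iL_F, 7.51% in P5_a2iL_1 and 5.11% in P5_LCDM_1 over 64 cytosines. Its gene end is the far end of this minus-strand gene from its start. There P5_2iL and P5_2iL_F were the high libraries, 10.9 and 10.7 points above muscle. P5_LCDM_1 differed from P5_2iL by -8.30 points at Nkx2-5 (strands -8.12 and -11.4). The other 4 Nkx gene ends, of Nkx2-1, Nkx2-2, Nkx3-2 and Nkx6-1, were between 0.779 and 9.23% in all libraries.

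Of the Dlx genes, which lie in pairs and act in jaw, limb and forebrain interneurons, only Dlx1 passed 10 points at the gene end. Its gene end, chr2:71527113-71528613, lies before the promoter shown above, and was at 12.6% in muscle, 9.58% in P5_2iL, 12.4% in P5_2iL_F, 20.3% in P5_a2iL_1 and 37.9% in P5_LCDM_1 over 35 cytosines. P5_LCDM_1 was 25.7 points above muscle (strands 25.5 and 27.5) and 30.5 above P5_2iL (36.6 and 22.4). In the 1 kb tile that holds the Dlx1 promoter all 5 libraries were at 0.814 to 2.003%. In a window at the annotated start Dlx1 in P5_LCDM_1 differed from muscle by 1.72 points and from P5_2iL by 1.99. In the order muscle, P5_2iL, P5_2iL_F, P5_a2iL_1 and P5_LCDM_1, Dlx3 was at 5.56%, 3.68%, 2.26%, 3.02% and 3.90%, and Dlx4 at 3.92%, 3.91%, 3.86%, 2.87% and 3.55%. Dlx2, Dlx5 and Dlx6 were between 1.20 and 5.82%. The paired neighbours Dlx1 and Dlx2, Dlx3 and Dlx4, and Dlx5 and Dlx6 lie within 15151 bp of each other, as do Six2 and Six3 within 36545 bp, so they are not independent loci, although no windows overlapped.

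In the Irx genes, which pattern neural tube, heart and limb, P5_a2iL_1 was highest at the gene end of Irx6, at 1.98% in muscle, 4.19% in P5_2iL, 6.44% in P5_2iL_F, 13.1% in P5_a2iL_1 and 8.99% in P5_LCDM_1 over 105 cytosines. Irx4, a gene of the heart ventricle, stood at 9.44% in muscle, 5.06% in P5_2iL, 17.2% in P5_2iL_F, 11.4% in P5_a2iL_1 and 4.22% in P5_LCDM_1, but over 15 cytosines. Its gene end is the far end of this plus-strand gene from its start. P5_2iL_F was highest there, 17.7 points above P5_2iL, and the strands gave 26.4 and 11.3. Irx1, Irx2, Irx3 and Irx5 lay between 0.411 and 9.43% in all libraries.

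En1, En2 and Gbx2 act around the boundary of midbrain and hindbrain. The gene end of Gbx2, which had the most cytosines of any member (188), was at 3.31% in muscle, 15.1% in P5_2iL, 17.7% in P5_2iL_F, 14.6% in P5_a2iL_1 and 20.7% in P5_LCDM_1. All teratomas were 12.2 to 18.4 points above muscle, with both strands in that direction. En1 had 1.82%, 8.14%, 8.25%, 9.93% and 12.8% in muscle, P5_2iL, P5_2iL_F, P5_a2iL_1 and P5_LCDM_1 over 40 cytosines, and En2 lay between 2.01 and 8.21%. Six3, of forebrain and eye, had 1.97%, 11.96%, 10.2%, 11.8% and 8.0% in the same order, while Six6 had 2.69%, 1.19%, 0.957%, 3.79% and 5.83% and Six2 was between 0.897 and 3.12%.

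Among the paired and bicoid type genes, Alx4 was at 4.76% in muscle, 10.8% in P5_2iL, 13.5% in P5_2iL_F, 7.28% in P5_a2iL_1 and 8.88% in P5_LCDM_1 over 71 cytosines. Hesx1, a repressor of early forebrain and pituitary, was at 0% in muscle, 0.769% in P5_2iL, 30.8% in P5_2iL_F, 0% in P5_a2iL_1 and 0.855% in P5_LCDM_1 over 13 cytosines. Its strands disagreed: the P5_2iL_F difference from muscle was 0 points on one strand and 60.0 on the other, so the difference was not seen on the 6 plus-strand cytosines. Prrx2 had 0.313%, 7.33%, 0.230%, 1.46% and 1.15% in muscle, P5_2iL, P5_2iL_F, P5_a2iL_1 and P5_LCDM_1, and Prrx1, its limb and craniofacial relative, 5.66%, 4.70%, 12.4%, 8.68% and 9.67%. In that order Pitx1, which specifies the hindlimb, was flat at 8.08%, 8.15%, 6.77%, 8.69% and 8.35%, and Shox2 had 2.58%, 2.03%, 4.59%, 1.07% and 0.754%. Gsc, Otx1 and Uncx lay between 0.552 and 6.64%.

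The remaining gene ends were low. In the order muscle, P5_2iL, P5_2iL_F, P5_a2iL_1 and P5_LCDM_1, Emx2, a gene of the cortex, stood at 4.36%, 3.84%, 3.03%, 3.37% and 7.97%. Msx1, of tooth and craniofacial mesenchyme, was at 1.77%, 1.12%, 0.880%, 2.48% and 0.530%, and Meis2, a cofactor of Hox proteins, at 4.22%, 4.22%, 4.95%, 2.07% and 11.2%. Emx1, Vax1, Vax2, Barx1, Msx2 and Meis1 ranged from 0.567 to 7.16% over all libraries.

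The gene bodies gave the clearest separation of a library, and that library was P5_LCDM_1. Body levels of the 52 members with cytosines listed in all 5 libraries had a median of 8.42% in muscle, 7.70% in P5_2iL, 8.55% in P5_2iL_F, 10.3% in P5_a2iL_1 and 13.8% in P5_LCDM_1. Bodies of all protein coding genes were far higher, with medians of 55.6% in muscle and 66.2% in P5_2iL over cytosines listed in both. P5_LCDM_1 was the highest library in 33 of the 52 members, and muscle the lowest in 19. The ranks were not counted over all gene bodies.

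**Figure D2:**
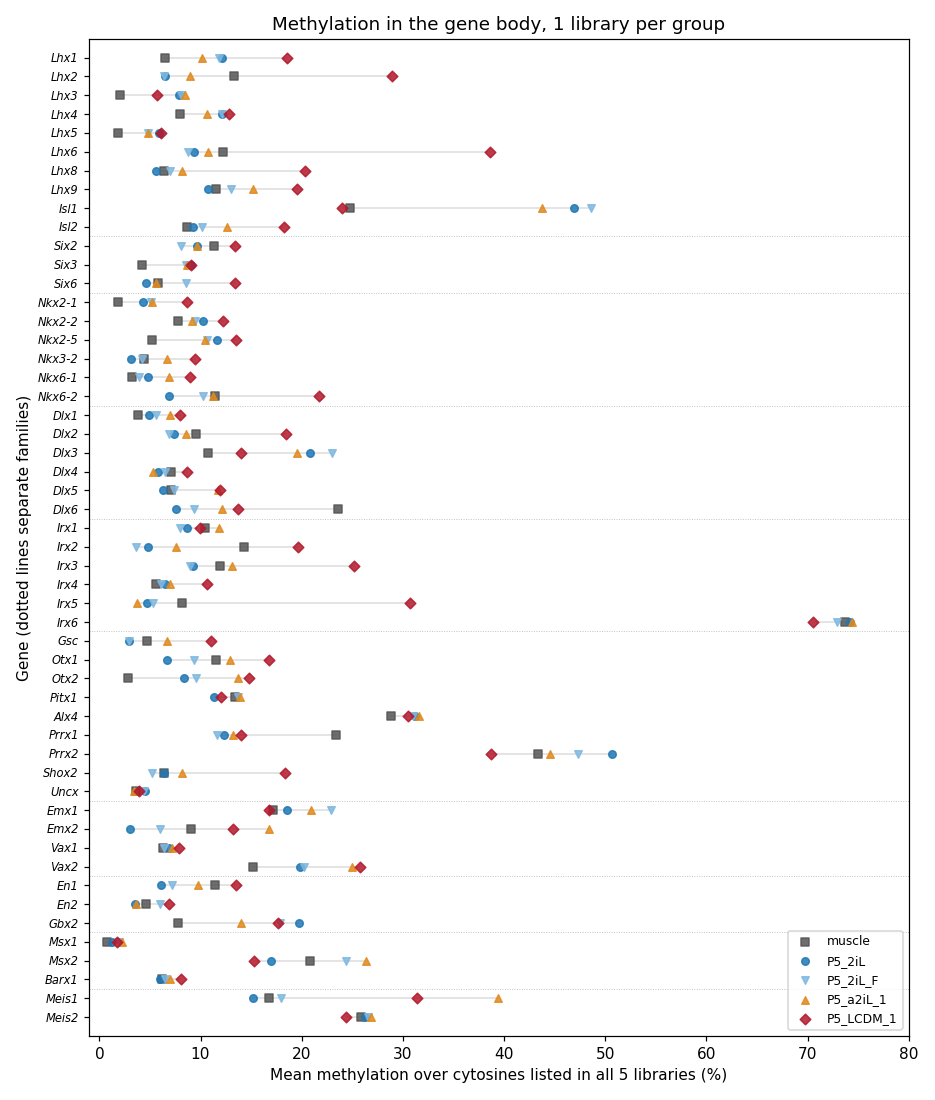
Mean methylation (percent, horizontal axis) of the gene body of each measured member (rows, grouped by family), with 1 symbol for each of the 5 libraries; each library is a single sample, and no error bar can be drawn. The median is 13.8% in P5_LCDM_1 and 7.70 to 10.3% in the other libraries, with Irx6 above 70% throughout.

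Against muscle, bodies of all genes were higher in each teratoma, with median differences of 5.43 points in P5_2iL, 4.97 in P5_2iL_F, 2.60 in P5_a2iL_1 and 1.35 in P5_LCDM_1. The members had the opposite order, with 0.165, 0.657, 1.57 and 4.81 points. At 10 points, 2 of 52 members were higher and 2 lower in P5_2iL, where 31.2% of all genes were higher and 3.44% lower. The counts were 3 and 2 in P5_2iL_F (background 28.7% and 3.31%), 3 and 1 in P5_a2iL_1 (17.2% and 3.74%), and 10 and 0 in P5_LCDM_1 (15.1% and 8.12%). At 25 points 1 member, Lhx6 in P5_LCDM_1, was higher than muscle, and 0 were higher in the other 3 or lower in any. The background at 25 points was 6.35%, 5.44%, 2.82% and 2.62% higher, and 0.910%, 0.755%, 0.592% and 1.27% lower. In muscle 8 of 52 member bodies were at 20% or more, so few could be lower by 25 points.

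Against P5_2iL the contrast with other genes was in direction. In P5_LCDM_1, 12 of 53 member bodies were higher by 10 points (22.6%) and 3 lower (5.66%), whereas 3.95% of all gene bodies were higher and 24.5% lower. The median was 2.86 points in the members and -3.09 over all genes. Of the 53 members 40 were above P5_2iL, beside 4351 of 16818 of all gene bodies. Among related genes, 24 of 39 Hox, 4 of 9 Pax and 44 of 77 other homeobox bodies were above P5_2iL. In P5_2iL 34 of 52 member bodies were under 10%, so most had little room to be lower by 10 points. With P5_2iL_F in place of P5_2iL, the members counted 11 higher and 1 lower with a median of 2.76, beside 3.99% and 22.5% of all genes. At 25 points 2 members were higher (Lhx6 and Irx5) and 1 lower (Hesx1), with 0.892% and 4.30% of all genes. P5_a2iL_1 had 2 members higher by 10 points (Meis1 and Emx2) and 1 lower (Hesx1), beside 2.95% and 12.7%, and a median of 0.979 against -2.51. P5_2iL_F had 0 higher and 1 lower (Hesx1), beside 1.79% and 2.62%. At 25 points Hesx1 was the only member past the rule in these 2 comparisons, lower in both, beside 0.253% of all genes higher and 0.400% lower in P5_2iL_F, and 0.667% and 1.60% in P5_a2iL_1. No test could be made of any of these shares, with 1 library a group.

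**Figure D3:**
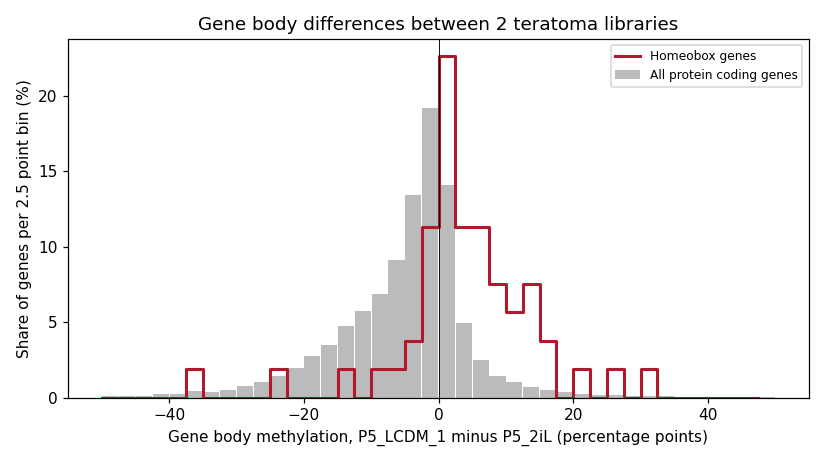
Distribution of gene body differences, P5_LCDM_1 minus P5_2iL, in percentage points (horizontal axis, from -50 to 50) for the members (red outline) and for all protein coding genes (grey bars), as the share of genes (percent, vertical axis) in each bin. The members centre above 0 (median 2.86) and all genes below 0 (median -3.09).

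Member bodies were mostly low in muscle, so they were also set beside other genes with a low body. Of the members, 43 had a body under 20% in muscle, and in P5_LCDM_1 11 of these (25.6%) were higher than in P5_2iL by 10 points and 0 lower, with a median of 3.80 points. Among 2871 other genes with a body under 20% in muscle, 3.97% were higher and 4.60% lower, with a median of -0.060.

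The 12 bodies higher in P5_LCDM_1 than in P5_2iL came from several classes. They were Lhx2, Lhx6 and Lhx8 of 10 LIM homeodomain genes, Irx2, Irx3 and Irx5 of 6 Irx genes, Otx1 and Shox2 of 10 paired and bicoid type genes, and Dlx2, Nkx6-2, Six6 and Meis1. On each strand alone 10 of the 12 passed 10 points, and Nkx6-2 and Six6 did so on 1 strand, with 9.47 and 7.997 points on the other. None of the Emx, Vax, En, Gbx, Msx or Barx genes was among them.

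Lhx6 had the largest such difference. Its body stood at 12.2% in muscle, 9.38% in P5_2iL, 8.71% in P5_2iL_F, 10.8% in P5_a2iL_1 and 38.6% in P5_LCDM_1 over 272 cytosines. P5_LCDM_1 was above P5_2iL by 31.4 points over 316 shared cytosines, with 36.3 and 28.8 on the strands, and above muscle by 27.4 (34.3 and 22.5). The other 4 libraries lay within 4 points of each other. The difference was seen in several 1 kb tiles within the gene. In the tile chr2:36091001-36092000 methylation stood at 5.02% in muscle, 3.12% in P5_2iL, 2.26% in P5_2iL_F, 3.21% in P5_a2iL_1 and 47.6% in P5_LCDM_1 (45 cytosines). In chr2:36103001-36104000, just inside the promoter region of this minus-strand gene, it was 4.80%, 2.32%, 3.09%, 8.35% and 50.8% in that order (56 cytosines). The next tile, chr2:36104001-36105000, was at 0.317 to 5.44% in all libraries. Thus P5_LCDM_1 was low on average, as were the other libraries, in 1 kb and far above them in the adjacent 1 kb. The low tile was not even. It holds the promoter chr2:36104011-36104310, where 7 cytosines were at 22.9% in P5_LCDM_1 and at 0% in the other libraries. The far end of the gene, described above, was instead above muscle in every teratoma.

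Lhx2 gave 13.3% in muscle, 6.53% in P5_2iL, 6.36% in P5_2iL_F, 8.94% in P5_a2iL_1 and 28.9% in P5_LCDM_1 over 593 cytosines. P5_LCDM_1 exceeded P5_2iL by 21.6 points (26.0 and 17.0 on the strands), while the other 3 teratomas lay below muscle. In the tile chr2:38354001-38355000 the level was 16.1%, 6.48%, 4.61%, 5.61% and 50.8% in muscle, P5_2iL, P5_2iL_F, P5_a2iL_1 and P5_LCDM_1 (45 cytosines), and in chr2:38355001-38356000 it was 28.7%, 5.34%, 4.58%, 8.11% and 50.7% (46 cytosines). A CpG-dense tile 3 kb before, chr2:38351001-38352000 with 143 cytosines, was at 1.13 to 2.75% in all 5 libraries. Lhx8, which acts in cholinergic neurons and the oocyte, was at 6.35%, 5.63%, 6.94%, 8.17% and 20.3% in the same order over 159 cytosines.

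Irx5 stood at 8.20% in muscle, 4.72% in P5_2iL, 5.26% in P5_2iL_F, 3.70% in P5_a2iL_1 and 30.7% in P5_LCDM_1 over 245 cytosines. The difference of P5_LCDM_1 from P5_2iL was 26.5 points, with 28.1 and 26.9 on the strands. Only P5_LCDM_1 stood out, while its gene end, measured over 182 cytosines, was at 0.411 to 2.91% in all libraries. In the tile chr8:92359001-92360000 Irx5 was at 4.38%, 6.18%, 6.28%, 5.28% and 48.5% in muscle, P5_2iL, P5_2iL_F, P5_a2iL_1 and P5_LCDM_1 (43 cytosines). Irx3, on the same chromosome, had body levels of 11.9%, 9.22%, 8.95%, 13.1% and 25.2% in that order (213 cytosines). Irx2, on chromosome 13, had 14.3%, 4.76%, 3.62%, 7.53% and 19.7% (436 cytosines). In Irx2 and Lhx2, P5_2iL, P5_2iL_F and P5_a2iL_1 were below muscle and P5_LCDM_1 above it.

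Meis1, a cofactor of Hox proteins that is active in blood stem cells and limb, had the largest body difference of P5_a2iL_1 from muscle among the members. Its body was at 16.8% in muscle, 15.2% in P5_2iL, 18.0% in P5_2iL_F, 39.4% in P5_a2iL_1 and 31.4% in P5_LCDM_1 over 281 cytosines. P5_a2iL_1 was 24.2 points above P5_2iL, with 23.3 and 27.8 on the strands, and 22.9 above muscle. In the tile chr11:19010001-19011000 the levels were 16.4%, 7.07%, 25.8%, 65.2% and 45.8% in the same order (25 cytosines), and in chr11:19013001-19014000 they were 12.6%, 9.53%, 11.7%, 66.7% and 49.1% (23 cytosines). A tile beyond the other end of Meis1, chr11:18875001-18876000, had the reverse order, with 48.1% in muscle and 2.81 to 14.2% in the teratomas (22 cytosines).

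**Figure D4:**
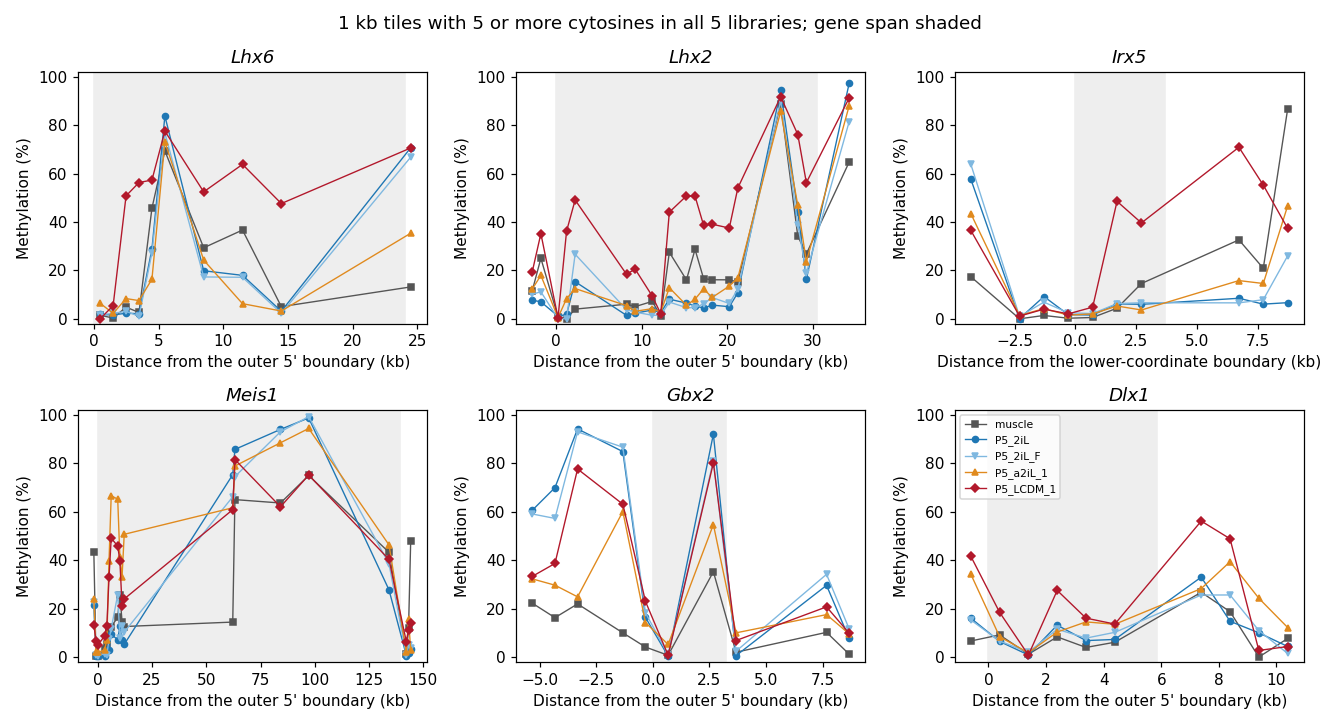
Mean methylation (percent, vertical axis) of 1 kb tiles with 5 or more cytosines in all libraries, by distance in kb from a gene boundary (horizontal axis) along Lhx6, Lhx2, Irx5, Meis1, Gbx2 and Dlx1, with 1 line for each of the 5 libraries and the gene span shaded; there are no replicates and so no error bars. P5_LCDM_1 reaches 47.6 to 50.8% in tiles of Lhx6 and Lhx2 where P5_2iL, P5_2iL_F and P5_a2iL_1 are under 10%, and Meis1 has tiles where P5_a2iL_1 exceeds 60%.

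Of the other bodies higher in P5_LCDM_1, Nkx6-2 was at 11.5% in muscle, 6.87% in P5_2iL, 10.3% in P5_2iL_F, 11.3% in P5_a2iL_1 and 21.7% in P5_LCDM_1 over 191 cytosines. Shox2, a gene of limb and cardiac pacemaker, had 6.37%, 6.38%, 5.16% and 8.18% in muscle, P5_2iL, P5_2iL_F and P5_a2iL_1 and exceeded P5_2iL by 10.9 points in P5_LCDM_1. Dlx2 was 12.2 points above P5_2iL (11.5 and 13.0 on the strands), Otx1 15.4 points (18.9 and 11.95) and Six6 10.4 points (7.997 and 14.4). Beyond the Otx1 body, the tile chr11:21993001-21994000 with 168 cytosines was at 4.95% in muscle, 14.3% in P5_2iL, 14.6% in P5_2iL_F, 18.5% in P5_a2iL_1 and 31.9% in P5_LCDM_1. The teratomas were all above muscle in that tile.

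Some members had another order. The body of Isl1 was at 24.7% in muscle, 46.9% in P5_2iL, 48.6% in P5_2iL_F, 43.8% in P5_a2iL_1 and 24.02% in P5_LCDM_1 over 56 cytosines. P5_LCDM_1 differed from P5_2iL by -22.8 points (strands -19.8 and -28.8) and lay beside muscle. The difference of P5_2iL from muscle was 18.5 points but was carried by 1 strand (0.576 and 31.3). Dlx6 was highest in muscle, with 23.6% against 7.55% in P5_2iL, 9.38% in P5_2iL_F, 12.2% in P5_a2iL_1 and 13.7% in P5_LCDM_1 over 65 cytosines. Prrx1 likewise had 23.4% in muscle and 11.6 to 14.1% in the teratomas. Its relative Prrx2 had 43.4% in muscle, 50.7% in P5_2iL, 47.3% in P5_2iL_F, 44.6% in P5_a2iL_1 and 38.7% in P5_LCDM_1. Hesx1, the 1 body with no cytosine listed in all 5 libraries, was at 75% in P5_2iL and 37.5% in P5_LCDM_1 over 8 shared cytosines.

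Among bodies under these sizes, Lhx1, needed for the head organizer and kidney, was at 6.48% in muscle, 12.2% in P5_2iL, 11.8% in P5_2iL_F, 10.2% in P5_a2iL_1 and 18.5% in P5_LCDM_1 over 347 cytosines. Isl2, whose gene end could not be measured, had 8.65%, 9.27%, 10.1%, 12.6% and 18.2% in the same order over 504 cytosines. Both had P5_LCDM_1 as the highest library. Otx2, another gene with no measured end and a regulator of forebrain and early epiblast, was at 2.84%, 8.34%, 9.54%, 13.7% and 14.7%. Emx2 was highest in P5_a2iL_1, at 9.10%, 3.01%, 5.97%, 16.8% and 13.2%, and Dlx3, a gene of skin and placenta, in P5_2iL_F, at 10.7%, 20.8%, 23.0%, 19.5% and 13.96%. The highest body of all was that of Irx6, at 70.5 to 74.4% over 36 cytosines, and the lowest that of Msx1, at 0.770 to 2.25%. Neither separated the libraries.

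At Gbx2 all teratomas exceeded muscle outside a low centre. In the tile chr1:89932001-89933000, which begins at the outer part of its gene end, methylation stood at 10.01% in muscle, 84.9% in P5_2iL, 86.7% in P5_2iL_F, 60.1% in P5_a2iL_1 and 63.1% in P5_LCDM_1 (54 cytosines). The tile chr1:89930001-89931000 inside the gene held 156 cytosines and was at 0.392 to 5.19% in all libraries. At the far side, chr1:89928001-89929000 had 35.3% in muscle and 54.7 to 92.1% in the teratomas (28 cytosines). The teratomas were above muscle on both sides of that low tile.

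Tiles of 1 kb were also taken over the members and 5 kb around them. P5_LCDM_1 was higher than P5_2iL by 25 points in 54 of 604 (8.94%) and lower in 37 (6.13%). Over all tiles the shares were 2.93% and 16.5%. Tiles of Hox genes had 12.3% and 4.94%, and those of other homeobox genes 2.58% and 11.7%. Among tiles under 20% in muscle, 20 of 404 member tiles were higher (4.95%) and 6 lower (1.49%), beside 2.29% and 7.59% of all. Against muscle, P5_LCDM_1 was higher in 47 of 588 member tiles (7.99%) and lower in 21 (3.57%), beside 9.45% and 7.90% of all. P5_2iL was higher than muscle in 42 of 580 member tiles (7.24%) and lower in 24 (4.14%), beside 17.4% and 3.43%. Neighbouring tiles of a gene are not independent.

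By position, levels were lowest just inside the gene end, and the widest spread between libraries was from 2000 to 2500 bp inside. In the first 500 bp inside, members averaged 1.71% in muscle, 2.92% in P5_2iL, 3.31% in P5_2iL_F, 4.05% in P5_a2iL_1 and 5.73% in P5_LCDM_1. From 2000 to 2500 bp inside, they averaged 10.3%, 9.52%, 10.4%, 10.8% and 20.5% in the same order. P5_LCDM_1 was near 20% there and the other 4 near 10%. From 3000 to 3500 bp inside, all 5 lay between 7.85 and 11.9%, and from 3500 to 4000 bp between 5.25 (muscle) and 12.1% (P5_a2iL_1). Outside the gene the libraries also differed, with 13.3 to 23.8% from 2000 to 2500 bp before the end, where P5_LCDM_1 was again highest, and 10.8 to 13.5% in the next 500 bp toward the gene.

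**Figure D5:**
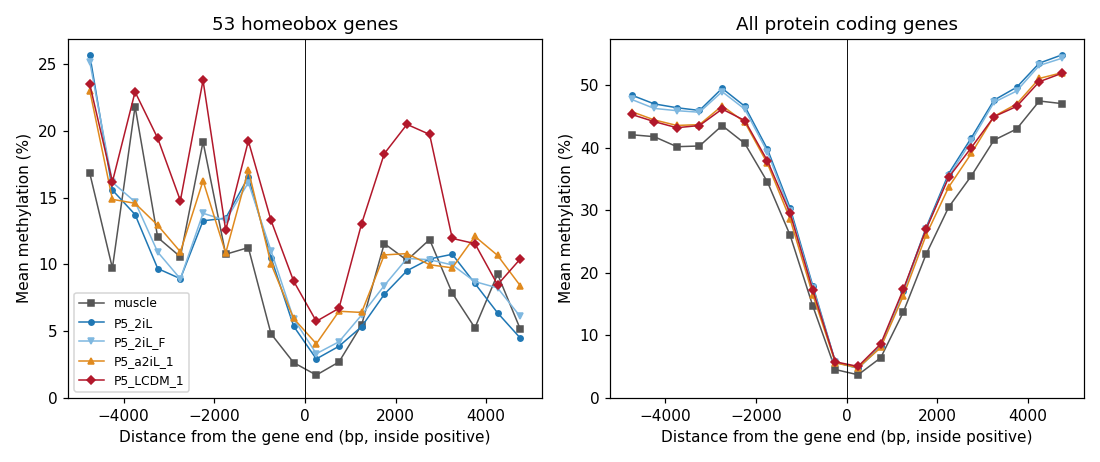
Mean methylation (percent, vertical axis, on different scales) of the members' cytosines (left) and those of all protein coding genes (right) in 500 bp bins by distance in bp from the chosen gene end (horizontal axis, positive inside the gene), with 1 line per library over cytosines listed in all 5. In the members, P5_LCDM_1 reaches 20.5% at 2000 to 2500 bp inside, where the other libraries lie between 9.52 and 10.8%.

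Body cytosines of intermediate level were most frequent in P5_LCDM_1. Of 11469 body cytosines of the members listed in all libraries, 27.0% lay between 20 and 80% in P5_LCDM_1, against 14.3% in muscle, 12.2% in P5_2iL, 13.3% in P5_2iL_F and 17.2% in P5_a2iL_1. Over all autosomal cytosines P5_LCDM_1 also had the largest such share, 26.8%, against 21.7% in muscle, 13.4% in P5_2iL, 15.4% in P5_2iL_F and 22.8% in P5_a2iL_1, so its rank is not particular to the members. In the member bodies the share over 80% was 3.64% in P5_LCDM_1 and 3.30 to 3.96% in the others. At the gene ends, 12.3% of 3896 cytosines were between 20 and 80% in P5_LCDM_1, against 3.82% in muscle and 6.70% in P5_2iL. Body cytosines of the members with 30 or more listed cytosines within 100 bp averaged 3.92% in muscle, 3.93% in P5_2iL, 4.34% in P5_2iL_F, 5.98% in P5_a2iL_1 and 10.9% in P5_LCDM_1. All autosomal cytosines of that density were at 2.75%, 3.66%, 3.65%, 3.94% and 4.63% in the same order.

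Of 36 member promoters with 3 or more cytosines listed in all libraries, P5_LCDM_1 alone was highest in 17, P5_a2iL_1 in 9, muscle in 4, P5_2iL in 3 and P5_2iL_F in 2. With 10 or more cytosines (28 promoters), the counts for P5_LCDM_1 and P5_a2iL_1 were 13 and 7. No such count was made over all promoters. P5_LCDM_1 (4.63%) and P5_a2iL_1 (3.94%) were also highest over all autosomal cytosines with 30 or more listed within 100 bp. The ranks may therefore not be particular to the members. The Irx4 promoter was at 2.55% in muscle, 12.6% in P5_2iL, 3.65% in P5_2iL_F, 4.50% in P5_a2iL_1 and 26.3% in P5_LCDM_1 (17 cytosines). P5_LCDM_1 was thus highest at this promoter, and lowest at the Irx4 gene end on the far side of the gene. A Meis2 promoter was at 22.8% in P5_LCDM_1 and 1.44 to 5.64% elsewhere (10 cytosines). One Lhx6 promoter was at 22.9% in P5_LCDM_1 and at 0% in the other 4 libraries, but over 7 cytosines. Otx2 had 1 promoter at 27.8% in P5_LCDM_1 and 2.11 to 12.6% elsewhere (5 cytosines), and another at 41.7% in P5_a2iL_1 and 0% in the other 4 libraries (6 cytosines). Promoters of Gbx2 and Isl1 were also highest in P5_a2iL_1, at 13.9% (55 cytosines) and 9.51% (66 cytosines), and lay at 0.583 to 7.61% and 0.240 to 6.48% in the other libraries. An Irx3 promoter was at 16.7% in P5_a2iL_1 and 0 to 3.03% elsewhere, over only 3 cytosines.

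The other homeobox and Pax genes are given beside the members as counts, and the difference between the lists was not tested. Of 39 Hox gene bodies, 7 were higher by 10 points in P5_LCDM_1 than in P5_2iL and 6 lower, with a median of 2.29 points. Of 77 measured bodies of homeobox genes in neither list, 8 were higher and 11 lower, with a median of 1.28. Of 9 Pax genes, which carry a paired domain and in part a homeodomain, 1 was higher and 1 lower, with a median of -2.53. At the gene ends P5_LCDM_1 was above muscle by 10 points in 13 of 37 Hox genes, 3 of 8 Pax genes and 16 of 72 other homeobox genes, against 6 of 50 members.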

How the data were processed

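Bisulfite libraries of 1 muscle and 4 teratoma samples were used. The authors deposited, for each CpG cytosine, its methylation in percent, with both strands on separate lines and no read count. Trim Galore 0.6.4, Bismark (version not given in the sources used here) and build mm10 are named, per the submitters' processing notes. The coverage minimum is not given in the sources used here, so the reads behind a percent, and any interval, are unknown.

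Percents were averaged without weights over listed cytosines, in Python 3.11.15 with NumPy 2.4.6, pandas 2.3.3 and matplotlib 3.10.9, and checked on simulated data. Positions count from 1: 100% of 431767 listed promoter positions were then the C or G of a CpG in the RefSeq sequences. Strands were read from neighbouring pairs. RefSeq does not state exons here, so regions are placed by gene span and annotated start only. Of 40 members with a promoter entry, the gene end window held an annotated start in 23 and did not in 17.

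The 53 members and the other gene lists were chosen with earlier results of these data known. A member was named in full if its gene end or body passed 25 points, or if its gene end was among the 5 (against muscle) or 3 (against P5_2iL) with the largest differences each way over 10 or more cytosines. Promoters were to be shown for members past 25 points whose gene end held the start; none qualified, so those shown, the tiles and the bodies past 10 points were chosen after the values were seen. With 1 library a group there was no test. Alternatives were other windows, single strands, the median over cytosines and other size rules.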

Additional observations from a re-analysis of the deposited data

Results flagged for a closer look

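The bodies of Irx2 and Lhx2 were singled out by a rule of 1 direction. It asked for P5_2iL and P5_2iL_F below muscle and P5_LCDM_1 above it, each by 5 points or more. Members that split the teratomas around muscle in another way were not looked for. Irx2 differed from muscle by -9.58 points in P5_2iL, -10.7 in P5_2iL_F and -6.80 in P5_a2iL_1, and by 5.32 in P5_LCDM_1. Lhx2 differed by -6.81, -6.99 and -4.40 points in the same libraries and by 15.5 in P5_LCDM_1. These values are over cytosines listed in all 5 libraries. With 1 library a group the difference between the teratomas was not tested.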

How the results depend on the processing

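No paired analysis was possible because each group is 1 library. Of 217 alternative values of the counts and medians, 184 stayed near the value reported and 33 moved. The cause of the moves was not tested. Most of the counts are of 0 to 3 members. A median was taken as near if it differed by less than 2 points. Every gene end median except that of P5_LCDM_1 against muscle is itself under 2 points. For these a fall to 0 was counted as near.

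Members higher by 25 points at the gene end, in P5_2iL, P5_2iL_F, P5_a2iL_1 and P5_LCDM_1 against muscle, were 1, 3, 0 and 2 as reported. In a window at the annotated start they were 0 in P5_2iL, 0 in P5_2iL_F and 1 in P5_LCDM_1. That 1 was neither Lhx6 nor Dlx1, which were both under 25 points there. At the other end of the gene the counts were 1 in P5_2iL_F and 2 in P5_a2iL_1, where the median was 4.25 points. At that end 1 member was lower in each of P5_2iL, P5_2iL_F and P5_a2iL_1. At 20 points there were 2 in P5_2iL and 2 in P5_a2iL_1, and at 30 points 1 in P5_LCDM_1. A window of 500 bp outside gave 1 in P5_a2iL_1 and 1 in P5_LCDM_1. The plus strand gave 1 in P5_2iL_F and the minus strand 1 in P5_a2iL_1. The median over cytosines gave 1 in P5_2iL_F. By that setting the median difference from muscle was 0 in each of P5_2iL, P5_2iL_F, P5_a2iL_1 and P5_LCDM_1.

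Against P5_2iL, the 1 member higher in P5_2iL_F became 0 at the other end, with the median over cytosines, at the annotated start (where 1 was lower) and at 30 points. The 1 lower in P5_a2iL_1 became 0 at the other end and on the minus strand. The 1 higher in P5_LCDM_1 became 0 with the median over cytosines, on the minus strand and at the annotated start, and 1 was lower at the other end and at the annotated start. For Hesx1, P5_2iL_F minus P5_2iL turned from 27.9 points to -1.67 on the plus strand and -54.2 at the annotated start (4 cytosines).

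In the bodies, by alternatives chosen after seeing the data, the median over cytosines gave 5 members higher by 10 points in P5_LCDM_1 than in P5_2iL and a median difference of 0 points, where 45.0% of body cytosines in P5_LCDM_1 and 57.6% in P5_2iL are at 0. With P5_2iL_F in place of P5_2iL, 1 member was lower. The other alternatives gave 11 to 13 members higher.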

Other observations

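Among homeobox genes outside both the list and the Hox clusters, Cdx1, Noto, Lbx2 and Hmx2 had differences past 25 points. Cdx1, a gene of the hindgut and posterior body axis, was at 64.0% in P5_2iL against 12.4% in muscle at its gene end (114 cytosines, 48.2 and 53.9 points above muscle on the strands), and at 47.9% in P5_2iL_F. Over cytosines shared with P5_2iL (62.4 and 62.5%), Cdx1 was at 35.9% in both P5_a2iL_1 and P5_LCDM_1. Noto, a gene of the notochord, was at 14.6% in muscle, where P5_2iL reached 54.8% and P5_2iL_F 69.6%, and at 22.4% in P5_LCDM_1 (19 cytosines, too few on the plus strand for a value there). Lbx2 was at 29.2% in P5_a2iL_1 against 1.0% in muscle (20 cytosines), and at 37.8% in P5_LCDM_1 against 10.2% (42 cytosines). Hmx2, of the inner ear, was at 73.1% in P5_LCDM_1 and 34.6% in P5_2iL (13 cytosines).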
